A study of Mus musculus with 3 samples.

Results

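The genes described here are 10 members of the Notch pathway, chosen by name from the 31053 genes of the count matrices. They comprise 3 ligands (*Jag1*, *Jag2* and *Dll4*), 4 receptors (*Notch1*, *Notch2*, *Notch3* and *Notch4*) and 3 transcriptional targets (*Hes1*, *Hey1* and *Heyl*), and each had at least 1 unique molecular identifier (UMI) in each library. Cells dissociated from the iridocorneal angle and limbal tissue were captured in 3 droplet libraries, 2 from control mice (*Angpt1* flox/flox) and 1 from *Angpt1*ΔNC mice (*Angpt1* flox/flox;Wnt1Cre+), in which Cre driven by *Wnt1* deletes *Angpt1* in the neural crest lineage. A library holds tissue from 2 to 3 animals at 6 weeks of age, on a mixed background made albino by 2 generations of crosses to ICR, so the library is the replicate and *Angpt1*ΔNC has 1. Control and *Angpt1*ΔNC mice share the floxed *Angpt1* alleles and differ by the Cre transgene.

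Notch receptors are single-pass membrane proteins that are activated by ligands on a neighbouring cell. Ligand binding exposes the receptor to cleavage, and the freed intracellular domain enters the nucleus, where it joins the DNA-binding protein RBPJ and switches on genes of the HES and HEY families of transcriptional repressors. In blood vessels, DLL4 and NOTCH1 set arterial identity and restrain sprouting, while JAG1 on endothelium and NOTCH3 on mural cells support the smooth muscle and pericyte coat. In the surface epithelium of the eye, Notch signalling takes part in stem cell maintenance and differentiation.

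In build GRCm38 the ligands lie at chr2:137081456-137116644 (*Jag1*, minus strand), chr12:112907819-112929776 (*Jag2*, minus) and chr2:119325784-119335962 (*Dll4*, plus), and the receptors at chr2:26457903-26516663 (*Notch1*, minus), chr3:98013527-98150361 (*Notch2*, plus), chr17:32120820-32166852 (*Notch3*, minus) and chr17:34564268-34588503 (*Notch4*, plus). The targets lie at chr16:30064384-30067796 (*Hes1*, plus), chr3:8663359-8667256 (*Hey1*, minus) and chr4:123233556-123249875 (*Heyl*, plus). *Dll4* and *Notch3* had the steepest distributions over the cell labels described below, with a highest label 588 and 126 times the median label, and *Notch4* had the pattern most like *Dll4*. The 250 bases before the RefSeq transcription start of these 3 genes (build GRCm38.p6) are shown so that the sequence in front of each can be read beside its pattern. The promoter table matched 7 of the 10 genes by symbol, and *Hes1*, *Hey1* and *Heyl* had no entry. Capitals mark matches, on either strand, to the core of ETS factors (CAGGAA or CCGGAA) and to the N-box bound by HES repressors (CACNAG), none of which overlapped. The windows lie at chr2:119325534-119325783 on the plus strand (*Dll4*), chr17:34564045-34564294 on the plus strand (*Notch4*) and chr17:32166891-32167140 on the minus strand (*Notch3*).
Dll4: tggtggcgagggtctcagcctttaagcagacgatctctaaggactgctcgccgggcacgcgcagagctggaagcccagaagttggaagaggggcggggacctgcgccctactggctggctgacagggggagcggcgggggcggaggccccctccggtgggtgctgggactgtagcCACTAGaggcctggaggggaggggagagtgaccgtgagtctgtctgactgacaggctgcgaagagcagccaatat
Notch4: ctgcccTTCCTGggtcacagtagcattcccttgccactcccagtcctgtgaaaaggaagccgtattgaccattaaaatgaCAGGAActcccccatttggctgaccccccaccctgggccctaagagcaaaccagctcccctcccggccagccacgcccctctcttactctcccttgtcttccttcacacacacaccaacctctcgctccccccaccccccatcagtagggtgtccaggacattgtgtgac
Notch3: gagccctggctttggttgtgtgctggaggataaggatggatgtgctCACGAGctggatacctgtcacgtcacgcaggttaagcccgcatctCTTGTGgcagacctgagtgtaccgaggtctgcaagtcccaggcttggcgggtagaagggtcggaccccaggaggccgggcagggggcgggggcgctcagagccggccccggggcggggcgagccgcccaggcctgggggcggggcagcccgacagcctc
The ETS core had 2 matches before *Notch4* and none before *Dll4* or *Notch3*. The N-box had 1 match before *Dll4*, 2 before *Notch3* and none before *Notch4*. The RBPJ core (TGGGAA, both strands) was in none of the 7 windows. Of all 32851 promoter windows of this length, 35.1% held the ETS core, 36.7% the N-box and 21.6% the RBPJ core, so these matches describe the letters only.

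The authors kept 9076 and 10160 cells of the control libraries and 6772 of the *Angpt1*ΔNC library, with 76981606, 80346829 and 66484181 UMIs, and assigned them to 35 labels. A kept cell held a median of 6329.5 and 6393.5 UMIs in the controls and 7444 in *Angpt1*ΔNC, and 13 to 25 cell barcodes were shared between libraries. *Angpt1* itself was at a level of 0.567 and 0.521 in the controls and 0.00334 in *Angpt1*ΔNC, the direction the labels give, where a level is the mean over cells of UMIs per 10,000 UMIs of the cell. Males and females were both pooled according to the labels, but *Xist*, which is transcribed from the inactive X chromosome of females, was at a level of 0.000725 and 0.000406 in the controls and 7.2 in *Angpt1*ΔNC, so sex and genotype cannot be told apart in sums over all cells, and the comparisons of the members within each class were also run in cells with a Y-linked UMI and no *Xist*, while the differences between classes and the other pathway genes were not. Levels below are given for control replicate 1, control replicate 2 and *Angpt1*ΔNC in that order. The levels and their order describe the libraries without a test, because the labels were made from the same counts. Of the 35 labels, 34 had at least 20 cells in each control and were ordered by their mean over both controls. The lymphatic endothelium, with 3, 1 and 12 cells, was left out of the order. Where labels with *Angpt1*ΔNC above or below both controls are counted, they share 1 library and are not independent. No such count was made over all genes.

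**Figure D1:**
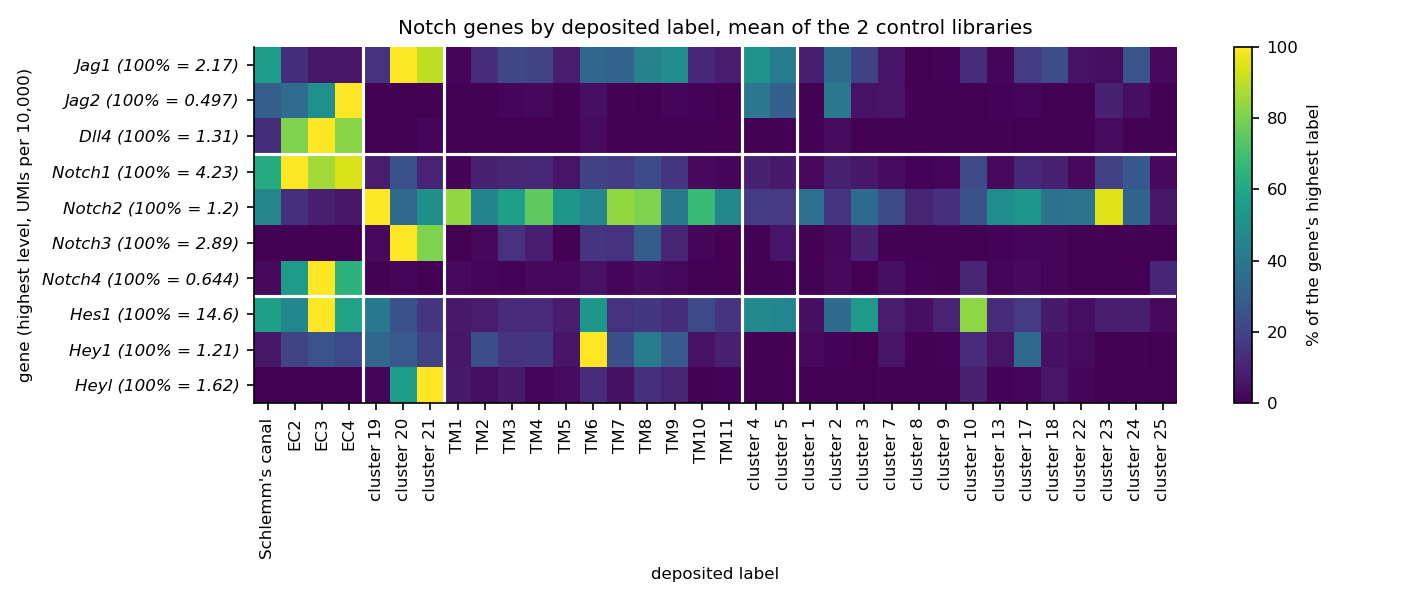
Mean level of each gene over the 2 control libraries in 34 deposited labels (columns), as a percentage of the gene's highest label, with that highest level in UMIs per 10,000 beside its name. White lines separate ligands, receptors and targets, and the classes of labels. *Dll4* and *Notch4* fill the endothelial columns EC2 to EC4, *Notch3* and *Heyl* fill mural clusters 20 and 21, and *Notch2* is spread over most columns.

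*Dll4*, the Notch ligand of arterial and sprouting endothelium, was the ligand with the narrowest distribution. Of all *Dll4* UMIs, 91.2% and 94.4% in the controls and 96.2% in *Angpt1*ΔNC lay in the endothelial labels, which made up 3.25%, 3.22% and 3.09% of the cells. Its level in EC3 was 1.36, 1.27 and 1.28. EC4 (1.27, 0.892 and 1.02) and EC2 (1.07, 1.05 and 1.52) followed, overlapping each other in the controls and lying just below EC3. Schlemm's canal, the lymphatic-like vessel that drains aqueous humor, was lower at 0.257, 0.0823 and 0.124, and its controls did not overlap those of the label below it. A *Dll4* UMI was detected in 58.5% of control replicate 1 cells in EC3 (95% exact interval 49.0 to 67.5), 68.6% of those in control replicate 2 (59.5 to 76.9) and 55.2% in *Angpt1*ΔNC (41.5 to 68.3). The median cell there held 7364, 10749 and 7507 UMIs. In the surface epithelium (clusters 4 and 5), which should lack *Dll4*, the share was 0.101%, 0 of 1012 cells and 0.110% at deeper medians of 17717, 15168.5 and 15135 UMIs. In 15 of the 34 labels neither control held a *Dll4* UMI. Such intervals cover counting error only.

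*Jag2*, a ligand of endothelium and stratified epithelium, had its highest level in EC4, at 0.581, 0.413 and 0.271. EC3 came next at 0.214, 0.284 and 0.197, and both steps in this order exceeded the range of the controls. The level fell off in the epithelial cluster 2 (0.202, 0.195 and 0.0614) and cluster 4 (0.204, 0.188 and 0.133), which overlapped each other. By number of UMIs the surface epithelium held most of it, with 68.3%, 68.4% and 63.1% of all *Jag2* UMIs. Mural cells held 1, 1 and 0 *Jag2* UMIs.

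*Jag1*, the ligand mutated in Alagille syndrome and the one most used between endothelial and mural cells, was detected in all 34 labels of the controls. Its highest level was in cluster 20, at 2.01, 2.33 and 2.51, and in cluster 21, at 1.81, 2.13 and 1.52. These clusters did not separate from each other, and both lay above the other 32 labels in the controls. Cluster 20 carried the pericyte markers *Rgs5*, *Kcnj8*, *Abcc9*, *Cspg4* and *Higd1b* at a summed level of 94.7, 107 and 87.5. *Rgs5* gave most of this, at 82.1, 92.3 and 75.1. In each library *Kcnj8* and *Abcc9* were higher in cluster 20 than in cluster 21, and *Cspg4* and *Higd1b* were lower. Cluster 21 carried smooth muscle markers (*Acta2*, *Myh11*, *Tagln*, *Cnn1* and *Des*) at 227, 244 and 133. Its pericyte markers summed to 33.0, 27.6 and 68.0, of which *Rgs5* gave 29.8, 24.1 and 64.1. Schlemm's canal came next for *Jag1*, overlapping cluster 4 in the controls, at 1.38, 0.996 and 2.49, against 0.109 to 0.294 in EC2 to EC4 of the controls. This *Angpt1*ΔNC value came from 27 UMIs in 15 cells, whose Schlemm's canal and lymphatic markers (*Prox1*, *Ccl21a*, *Flt4*, *Lyve1* and *Pdpn*) summed to 6.32 against 75.5 and 41.8 in the controls. *Ccl21a* gave most of that sum, at 73.6, 40.3 and 5.54, and *Prox1* was at 0.978, 0.871 and 0.350. *Selp*, which the study also uses as a Schlemm's canal marker and which counts here as a venous marker, was at 16.3, 21.2 and 44.6. Of the other venous markers in this label, *Ackr1* (0.116, 0.686 and 4.43), *Vwf* (0.274, 1.12 and 3.80) and *Nr2f2* (0.774, 0.760 and 1.39) were above both controls. *Ephb4* (0.472, 0.341 and 0.324) was below both.

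Among the receptors, *Notch1* was highest in endothelium. EC2 (4.71, 3.74 and 5.62), EC4 (3.80, 4.17 and 4.61) and EC3 (3.42, 3.87 and 4.90) overlapped in the controls, and the *Angpt1*ΔNC library lay above both controls in each. Schlemm's canal was lower, at 2.76, 2.46 and 1.64, and there *Angpt1*ΔNC lay below both controls. Endothelial labels held 26.4%, 26.4% and 24.4% of all *Notch1* UMIs. Outside endothelium, cluster 24 (1.05, 1.27 and 1.36) and cluster 20 (0.944, 1.17 and 0.654) had the highest levels and overlapped.

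*Notch4*, a receptor largely restricted to endothelium, followed *Dll4*. It was highest in EC3 at 0.603, 0.685 and 0.663, a level above EC4 (0.499, 0.331 and 0.491) and EC2 (0.476, 0.234 and 0.513) in the controls. Schlemm's canal cells were near the floor, at 0.0232, 0.0109 and 0.0739, from 1, 2 and 1 positive cells. Over the 34 labels the levels of *Dll4* and *Notch4* had a Pearson correlation of 0.93 on the log2 scale, the highest of the 45 pairs of members. This coefficient is a description across labels that share libraries and depth.

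*Notch3*, the receptor of vascular smooth muscle and pericytes that is mutated in the small vessel disease CADASIL, was highest in mural cells, which held 46.2%, 48.6% and 36.9% of its UMIs. The surface epithelium held 17.7%, 10.5% and 19.1%, and endothelial cells 4, 1 and 0 UMIs. In cluster 20 it was at 2.89, 2.90 and 2.01, and in cluster 21 at 2.22, 2.45 and 2.33, each step outside the range of the controls. Cluster 19, which carried the smooth muscle markers at 304, 284 and 260 and pericyte markers at 7.36, 7.40 and 2.09, had 0.0833, 0.0543 and 0. A *Notch3* UMI was found in 64.4%, 66.4% and 49.5% of cluster 20 cells, at median depths of 4297, 4372 and 3945.5 UMIs. Endothelial cells gave 1.02%, 0.306% and 0 of 209 at 6497, 7263 and 7093 UMIs, and the count of 0 allows a share of up to 1.44%. Among the stromal labels TM1 to TM11, *Notch3* was highest in TM8 (0.885, 0.822 and 0.220), and in TM1, TM5, TM10 and TM11 it was at most 0.0528 in the controls.

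*Notch2*, a receptor mutated in some patients with Alagille syndrome, was the broadest receptor, and its highest label was 2.54 times its median label. Cluster 19 (1.05, 1.36 and 0.750) and cluster 23 (1.20, 1.1 and 0.339), a cluster with dendritic cell markers, overlapped at the top, and which of them came first depended on the control library. TM7 (0.993, 1.03 and 0.725), TM1 (0.877, 1.14 and 0.902) and TM8 (0.919, 1.03 and 0.307) followed and overlapped. Stromal labels held 47.3%, 48.1% and 43.5% of its UMIs. Over all 34 labels *Angpt1*ΔNC lay below both controls in 22, between them in 9 and above both in 3.

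Of the targets, *Hes1*, a repressor that oscillates and keeps progenitors undifferentiated, was the one detected most widely. The level in EC3 was 13.5, 15.6 and 15.6, in the glial cluster 10 it was 12.9, 11.3 and 16.5, and in EC4 it was 7.01, 9.82 and 14.0. Schlemm's canal (7.98, 8.45 and 12.2), cluster 3 (6.00, 9.75 and 9.94), TM6 (8.62, 6.85 and 6.96) and cluster 4 (7.21, 6.55 and 10.9) overlapped as neighbours in the controls. *Angpt1*ΔNC lay above both controls in 27 of the 34 labels and below both in 3.

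*Hey1*, a repressor of the HEY family with a role in arterial endothelium, was highest in the stromal label TM6, at 1.45, 0.964 and 0.708, above all other labels in the controls. TM8 was next at 0.533, 0.483 and 0.256, followed by cluster 17 (0.448, 0.378 and 0.184) and cluster 19 (0.481, 0.321 and 0.344), which overlapped. TM6 also held the dissociation stress genes (12 immediate early genes such as *Fos*, *Jun* and *Egr1*) at a summed level of 372, 284 and 174, against 80.1, 68.7 and 55.6 in the stromal class as a whole, and the part of this in the *Hey1* level was not tested. In the surface epithelium *Hey1* had 3, 2 and 4 UMIs.

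*Heyl*, a HEY gene of smooth muscle, shared the mural pattern of *Notch3*. It was at 1.73, 1.5 and 2.05 in cluster 21 and 0.837, 0.976 and 1.46 in cluster 20, and at 0.0275, 0.0134 and 0.0739 in the smooth muscle cluster 19. In clusters 20 and 21 *Angpt1*ΔNC lay above both controls. It did so in cluster 19 too, but there the mean of the controls was 1.27% of that in cluster 21, near the floor. The endothelial class held 4, 0 and 1 *Heyl* UMIs. *Heyl* and *Notch3* had the next highest correlation over labels (0.84), and the pair stood in the same clusters although *Notch3* was higher in cluster 20 and *Heyl* in cluster 21.

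By likeness of pattern, the genes closest to each member differed by lineage. Likeness was the Pearson correlation of log2 levels (0.1 added) over the 34 labels, among 9375 genes, with no test. For *Dll4* these were *Nova2* (0.99), *AU021092* (0.98) and *Cyyr1* (0.98), and for *Notch4* *Aplnr* (0.96), *Exoc3l2* (0.95) and *Kcnq1* (0.94). *Notch3* was most like *Avpr1a* (0.91), *Gucy1a2* (0.89) and *Gucy1b1* (0.89), and *Heyl* most like *Gucy1a2* (0.91), *Syt5* (0.89) and *Gucy1b1* (0.87), so the 2 mural members had a pair of neighbours in common. *Notch1* was most like the endothelial sialomucin *Emcn* (0.83), and *Hey1* like *Zdbf2* (0.86) and the co-receptor *Nrp1* (0.84). *Jag2* was most like *Ces2e* (0.88), *Hes1* like *Pcdh1* (0.78) and *Notch2* like *Thbs1* (0.78). *Jag1* had no gene above 0.69 (*Plau*).

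To compare the genotypes, UMIs were summed in each library over 4 classes of labels (endothelial cells, mural cells, stromal cells TM1 to TM11, and the surface epithelium) and tested with edgeR. The class called stromal is mixed. The study reads TM1 as keratinocytes, TM2 as corneal endothelium, TM4 and TM5 as trabecular meshwork and TM6 to TM9 as uveal cells. It found proportionally fewer uveal and more corneal cells in *Angpt1*ΔNC and could not exclude variable dissection. The fit of 2 controls and 1 other library leaves 1 residual degree of freedom, and the lone *Angpt1*ΔNC library is assumed to vary like the controls. The 10 genes in 4 classes give 40 pairs. The filter on low counts left 31 of them, which depends on the counts themselves, and 10 of the 31 passed an adjusted p of 0.05, involving 7 of the 10 genes. Among all genes tested, 12.9% were called in endothelial cells, 16.4% in mural cells, 8.97% in stromal cells and 5.72% in the surface epithelium.

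**Figure D2:**
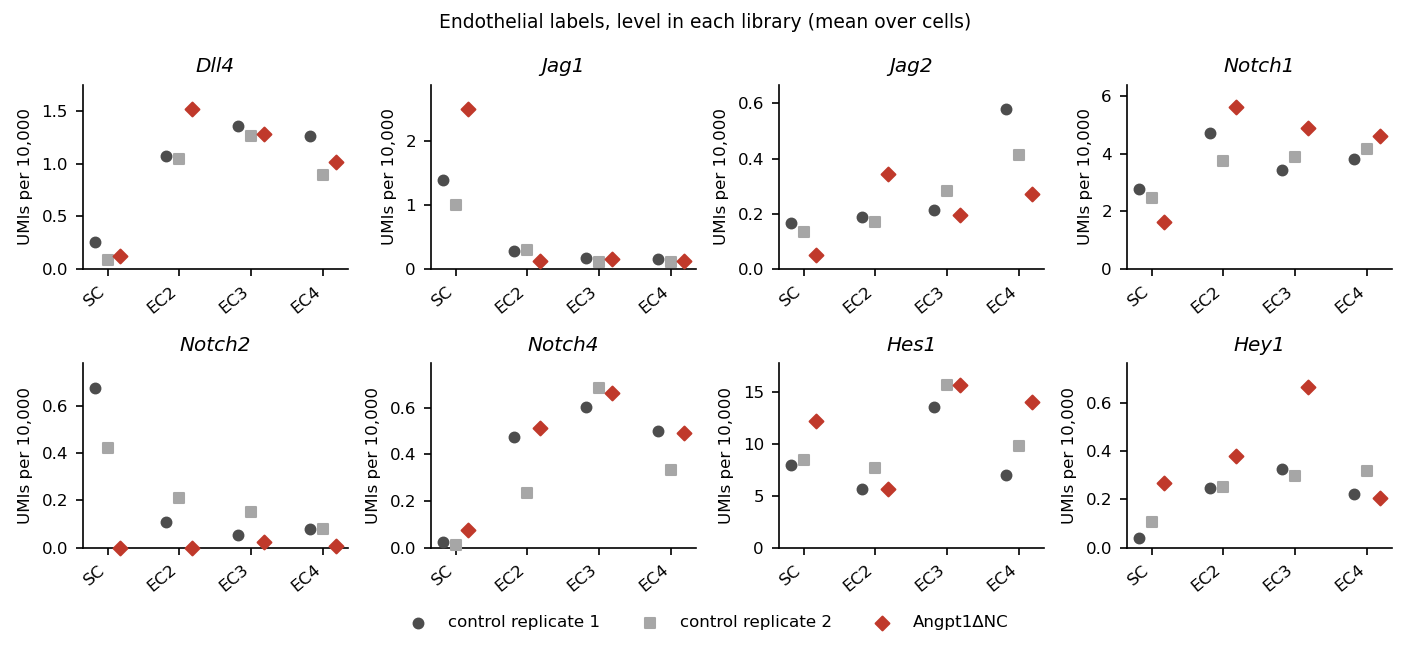
Level of 8 genes in Schlemm's canal (SC) and EC2 to EC4 in each library, as the mean over cells of UMIs per 10,000; a point is 1 library and each axis starts at 0. The *Angpt1*ΔNC points (red diamonds) lie above both controls for *Notch1* in EC2 to EC4 and for *Jag1* in SC, and below both for *Notch2* in all 4 labels.

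In endothelial cells 8 members were tested, of which *Hey1* and *Notch1* were called higher and *Notch2* lower. The median log2 fold change of the 8 was 0.31, beside -0.02 over all genes. *Notch2* had 40 and 57 UMIs in the controls and 8 in *Angpt1*ΔNC, of which 5 came from the 12 lymphatic cells. Without that label the log2 fold change was -3.04, on the few UMIs left. Over the whole class *Notch2* was at a level of 0.164, 0.188 and 0.0391. It fell by 1.80 on the log2 scale (SE 0.45, edgeR adjusted p = 0.00502), and *Angpt1*ΔNC lay below both controls in all 4 endothelial labels. Schlemm's canal had the highest *Notch2* among them, with a UMI in 41.3% and 33.3% of the control cells and in 0 of 15 *Angpt1*ΔNC cells, which allows a share of up to 20%. This call was lost with DESeq2 (adjusted p = 0.435), with equal numbers of cells of each label (-2.45, adjusted p = 0.0556) and in EC2 to EC4 alone (-2.08, adjusted p = 0.144).

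*Hey1* was at 0.236, 0.265 and 0.459 in the endothelial class and rose by 1.25 on the log2 scale (SE 0.23, edgeR adjusted p = 0.000127). Of the 96 endothelial *Hey1* UMIs in *Angpt1*ΔNC, 39 came from the 12 cells of the lymphatic endothelium, a label with 3 and 1 cells and 0 and 2 *Hey1* UMIs in the controls. Without this label the log2 fold change was 0.66 (SE 0.25) and the adjusted p 0.115, and in EC2 to EC4 alone it was 0.39 (adjusted p = 0.414). With equal numbers of cells of each label, which left 1 lymphatic cell per library, it was 1.04 and passed (adjusted p = 0.0175). The call was lost with DESeq2 (1.28, adjusted p = 0.170). Among the labels with enough cells, EC3 had 0.326, 0.296 and 0.663 and EC4 had 0.223, 0.316 and 0.204.

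*Notch1* was at 3.55, 3.68 and 4.54, with a log2 fold change of 0.45 (SE 0.15, edgeR adjusted p = 0.0470). Of 7 alternatives only the class without lymphatic endothelium kept this call (0.52, adjusted p = 0.0394), and the value ranged from 0.28 without TMM factors to 0.52. Without TMM factors the median log2 fold change of all endothelial genes moved from -0.02 to -0.19, and 35.1% of the calls were higher in place of 62.7%.

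*Dll4*, *Notch4* and *Jag2* were not called in endothelium. *Dll4* had a class level of 1.11, 0.887 and 1.08 and a log2 fold change of 0.29 (SE 0.18, edgeR adjusted p = 0.345). For *Notch4* (0.459, 0.385 and 0.484) it was 0.09 (SE 0.22, adjusted p = 0.843), and its sign turned under 4 of the alternatives. *Jag2* (0.340, 0.283 and 0.233) had 0.36 (SE 0.27, adjusted p = 0.442) in the summed UMIs, while its mean over cells was lowest in *Angpt1*ΔNC. *Jag1* (0.363, 0.302 and 0.298) had -0.64 (SE 0.25, adjusted p = 0.0973), but 0.38 (adjusted p = 0.541) with equal numbers of cells of each label, and -0.81 (adjusted p = 0.0134) without TMM factors. The Schlemm's canal label, the highest endothelial label for *Jag1*, had 46, 63 and 15 cells. *Hes1* (9.59, 11.4 and 12.6) had 0.33 (SE 0.15, adjusted p = 0.165). *Notch3* and *Heyl* did not pass the filter.

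In mural cells *Jag1*, *Hes1* and *Heyl* were called higher and *Notch2* lower, out of 7 members tested. The median of the 7 was 0.42, beside -0.05 over all genes. *Heyl* was at 0.697, 0.648 and 1.36 and rose by 1.19 on the log2 scale (SE 0.17, edgeR adjusted p = 0.000107). *Jag1* was at 1.34, 1.45 and 1.96 and rose by 0.79 (SE 0.15, adjusted p = 0.00193). The mix of the mural clusters differed between libraries, with 387, 499 and 54 cells of cluster 19, 461, 512 and 222 of cluster 20, and 188, 174 and 69 of cluster 21. Over the class, pericyte markers summed to 50.9, 53.5 and 70.2 and smooth muscle markers to 165, 162 and 81.4. *Rgs5* gave most of the pericyte sum, at 44.3, 46.0 and 61.2. With equal numbers of cells of each label, *Jag1* was at -0.0014 (adjusted p = 0.995) and *Heyl* at 0.53 (adjusted p = 0.0562), and in cluster 20 alone they were at 0.31 (adjusted p = 0.332) and 0.59 (adjusted p = 0.0793). Within clusters *Jag1* was above both controls in cluster 20 and below both in clusters 19 and 21.

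*Hes1* in mural cells was at 4.33, 4.28 and 6.07 and rose by 0.52 on the log2 scale (SE 0.13, edgeR adjusted p = 0.0112). Cluster 20 had 3.49, 3.74 and 6.97 and cluster 21 had 2.46, 2.12 and 4.26, so that *Angpt1*ΔNC was well above both controls there, while cluster 19 had 6.23, 5.59 and 4.71. In cluster 20 alone the log2 fold change was 0.87 (adjusted p = 0.00186), and without TMM factors the class value was 0.33 (adjusted p = 0.0895). The stress genes summed to 131, 118 and 77.3 in mural cells, and their part in the *Hes1* level was not tested.

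*Notch2* in mural cells was at 0.630, 0.888 and 0.346 and fell by 1.04 on the log2 scale (SE 0.25, edgeR adjusted p = 0.00822). The fall stayed past the threshold with equal numbers of cells (-0.75, adjusted p = 0.0254) but not in male-typed cells (-0.64, adjusted p = 0.241), with DESeq2 (-1.02, adjusted p = 0.0796) or in cluster 20 alone (-1.11, adjusted p = 0.0760). *Notch3*, the mural receptor, was at 1.72, 1.64 and 1.76 with a log2 fold change of 0.42 (SE 0.15, adjusted p = 0.0670). Its sign turned to -0.30 (adjusted p = 0.298) with equal numbers of cells and to -0.44 (adjusted p = 0.137) in cluster 20 alone, and in male-typed cells it was 0.80 (adjusted p = 0.00792). *Notch1* (0.606, 0.711 and 0.547) had -0.08 (adjusted p = 0.835), and *Hey1* (0.413, 0.279 and 0.166) had -0.71 (adjusted p = 0.119). *Dll4*, *Jag2* and *Notch4* did not pass the filter. Without TMM factors the median of all mural genes moved from -0.05 to -0.24 and 29.8% of the calls were higher in place of 55.8%, and the share was 66.3% with DESeq2 and 45.1% in cluster 20 alone.

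**Figure D3:**
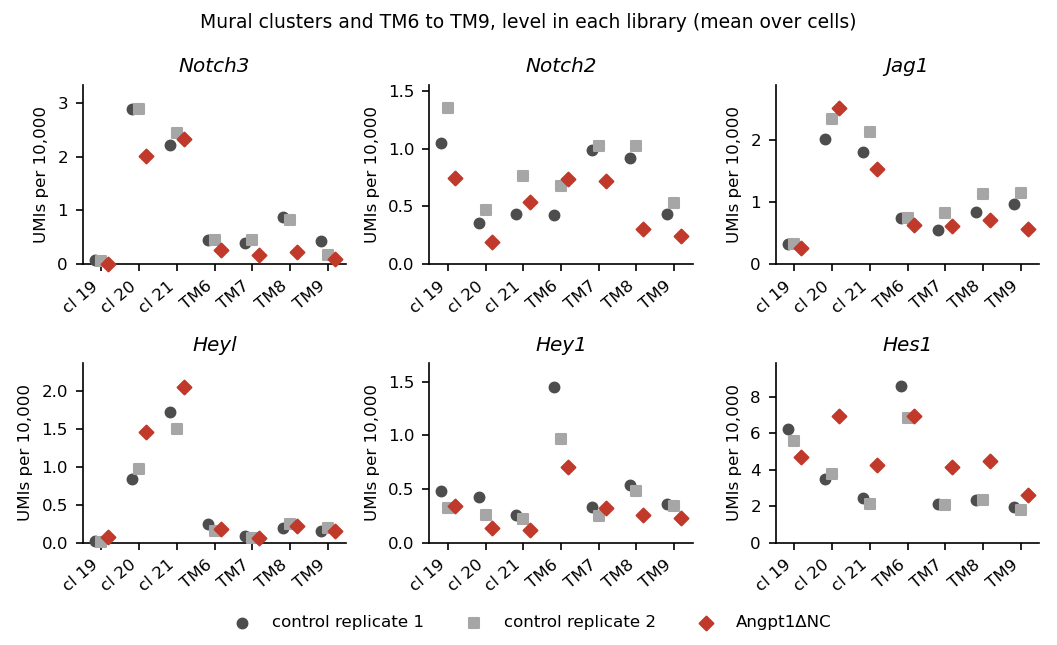
Level of 6 genes in the 3 mural clusters (cl) and in the stromal labels TM6 to TM9 in each library, as the mean over cells of UMIs per 10,000; a point is 1 library and each axis starts at 0. In *Angpt1*ΔNC (red diamonds) *Notch3* lies below both controls in TM6 to TM9, and *Hes1* above both in cl 20, cl 21 and TM7 to TM9.

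In stromal cells all 10 members were tested. *Notch3* was called lower and *Hes1* higher, and the median of the 10 was -0.55, beside -0.01 over all genes. *Notch3* was at 0.385, 0.351 and 0.107 and fell by 1.57 on the log2 scale (SE 0.17, edgeR adjusted p = 0.00103), from 546 and 654 UMIs to 153. *Angpt1*ΔNC lay below both controls in 6 of the 11 labels, among them TM6 (0.442, 0.440 and 0.261), TM7 (0.393, 0.449 and 0.167), TM8 (0.885, 0.822 and 0.220) and TM9 (0.434, 0.165 and 0.0925). TM3 was an exception at 0.372, 0.442 and 0.421. TM8 had 591, 612 and 155 cells and TM7 667, 739 and 174, and with equal numbers of cells of each label the value was -0.92 (adjusted p = 0.00457). The pericyte markers summed to 5.12, 3.79 and 1.02 in stromal cells, to 12.4, 10.4 and 4.32 in TM7 and to 4.57, 3.44 and 0.931 in TM8. In the stromal class *Rgs5* was at 3.80, 2.79 and 0.387, and *Cspg4* at 0.335, 0.375 and 0.492. The part of these markers in the fall of *Notch3* was not tested. In male-typed cells alone the value was -2.01 (adjusted p = 1.62e-06).

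*Hes1* in stromal cells was at 2.25, 1.95 and 3.19 and rose by 0.66 on the log2 scale (SE 0.15, edgeR adjusted p = 0.0291). The rise was spread over the stroma, with *Angpt1*ΔNC above both controls in 10 of 11 labels, all from 1 library. TM7 had 2.1, 2.05 and 4.13, TM8 had 2.32, 2.36 and 4.48, and TM6 alone lay between the controls. Like the *Notch3* result, it kept its call under all 6 alternatives with a test, with values of 0.65 to 0.77 and adjusted p up to 0.0338.

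The other 8 stromal values missed the threshold. *Notch2* (0.768, 0.874 and 0.556) had a log2 fold change of -0.60 (SE 0.18, edgeR adjusted p = 0.0676) and *Hey1* (0.365, 0.278 and 0.199) had -0.57 (SE 0.17, adjusted p = 0.0676). In TM6 to TM9 alone, an alternative chosen after the values were seen, *Notch2* was at -1.08 (adjusted p = 0.00349). *Jag1* (0.526, 0.669 and 0.390) had -0.53 (SE 0.20, adjusted p = 0.132) and *Notch1* (0.564, 0.605 and 0.419) had -0.37 (SE 0.16, adjusted p = 0.195), and with equal numbers of cells *Jag1* was at -0.22 (adjusted p = 0.492) and *Notch1* had an adjusted p above 0.99. In male-typed cells *Jag1* (-0.83, adjusted p = 0.00653), *Notch1* (-0.65, adjusted p = 0.0219) and *Hey1* (-0.66, adjusted p = 0.0357) passed the threshold. *Heyl*, *Notch4*, *Dll4* and *Jag2* had adjusted p from 0.289 to 0.685.

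In the surface epithelium 6 members were tested and *Hes1* was called higher, with a median of -0.24 beside -0.01 over all genes. *Dll4*, *Notch4*, *Hey1* and *Heyl* did not pass the filter. *Hes1* was at 7.01, 6.54 and 11 and rose by 0.83 on the log2 scale (SE 0.17, edgeR adjusted p = 0.0297). Cluster 4 (7.21, 6.55 and 10.9) and cluster 5 (6.87, 6.52 and 11.4) moved alike. Stress genes summed to 71.5, 65.1 and 38.1, and their part in the *Hes1* level was not tested. Without TMM factors the adjusted p was 0.0570, the median of all genes moved from -0.01 to -0.12 and 37.5% of the calls were higher in place of 49.2%. *Notch1* was at 0.326, 0.349 and 0.522, above both controls in both clusters, with a log2 fold change of 0.65 (SE 0.17, adjusted p = 0.0722). *Jag1*, *Jag2*, *Notch2* and *Notch3* had log2 fold changes from -0.19 to -0.50 and adjusted p from 0.262 to 0.522.

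**Figure D4:**
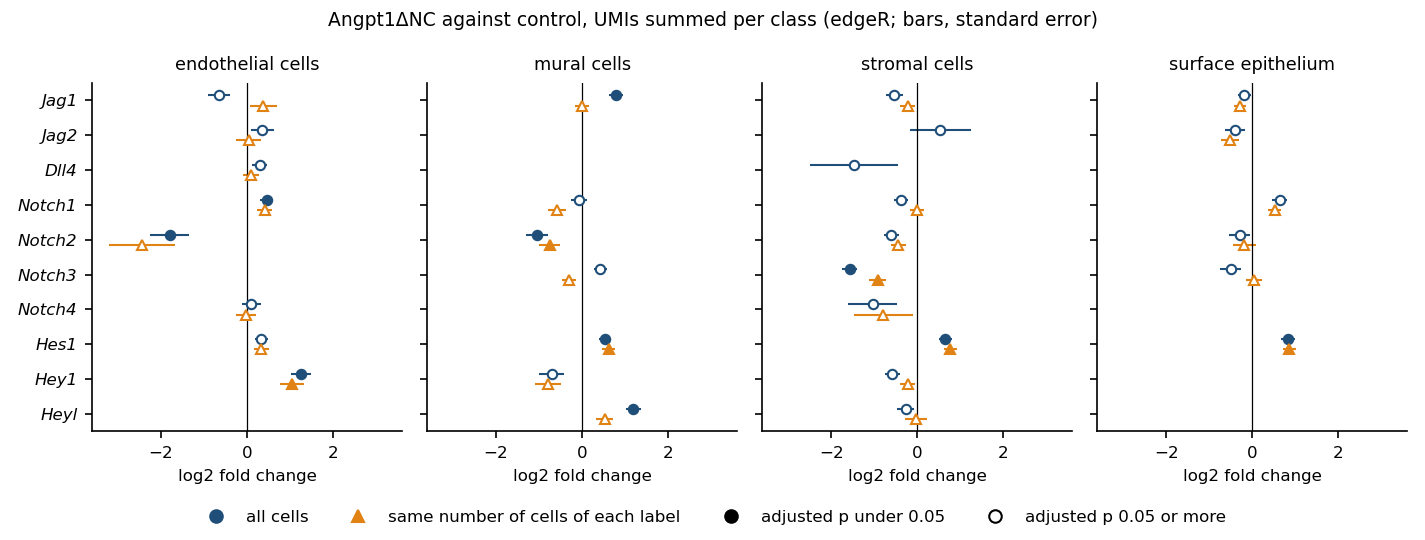
Log2 fold change of each gene in *Angpt1*ΔNC against control in 4 classes (edgeR on summed UMIs, bars are standard errors), with all cells (blue circles) and with the same number of cells of each label (orange triangles); filled symbols have an adjusted p under 0.05. *Hes1* keeps its place in stroma and epithelium, while *Jag1* in mural cells moves from 0.79 to -0.0014.

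Whether a change differed between classes was tested in 1 edgeR model over the 12 class sums, with the library as a term and stromal cells as the reference. The spread in this model comes only from how both controls differ between classes. The lone *Angpt1*ΔNC library adds nothing to it and is again assumed to vary like the controls. Of all genes, 3.63% were called for endothelial cells, 4.15% for mural cells and 4.63% for the surface epithelium. Among the members, the effect on *Notch1* and *Hey1* differed in endothelial cells from that in stromal cells, by 0.80 (SE 0.15, adjusted p = 0.00812) and 1.80 (SE 0.31, adjusted p = 0.00566). In mural cells the effect on *Jag1* was higher than in stromal cells by 1.29 (SE 0.24, adjusted p = 0.0103), on *Notch3* by 1.97 (SE 0.24, adjusted p = 0.000762) and on *Heyl* by 1.43 (SE 0.30, adjusted p = 0.0185). In the surface epithelium it was higher for *Notch1* by 0.96 (SE 0.15, adjusted p = 0.00266) and for *Notch3* by 1.02 (SE 0.26, adjusted p = 0.0449). With equal numbers of cells of each label, *Hey1* in endothelium (1.30, adjusted p = 0.0486) and *Notch3* in the epithelium (0.97, adjusted p = 0.0264) kept the difference, while the 3 mural values shrank to 0.23 for *Jag1*, 0.63 for *Notch3* and 0.56 for *Heyl*, with adjusted p from 0.239 to 0.851, and *Notch1* was at 0.45 (adjusted p = 0.205) in endothelium and 0.54 (adjusted p = 0.115) in the epithelium. Without TMM factors *Notch3* in the epithelium was at 0.97 (adjusted p = 0.0511). *Hes1* did not pass in any of the 3 contrasts (values from -0.34 to 0.12, SE 0.16 in each).

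A list of 43 other genes of the pathway was counted beside the members, in the main fit only. None of them was checked under the alternatives used for the members. In endothelial cells 2 of 31 tested were higher and 2 lower, in mural cells 1 of 38 was higher, in stromal cells 2 of 37 were higher and 4 lower, and in the surface epithelium 3 of 34 were higher and 1 lower. The shares called were 12.9%, 2.63%, 16.2% and 11.8%, against 12.9%, 16.4%, 8.97% and 5.72% of all genes, and the median log2 fold changes were -0.10, -0.19, -0.01 and -0.08. The ligand *Dll1*, which was highest in cluster 4 (1.36, 1.25 and 0.425), fell by 1.37 on the log2 scale in the epithelium (SE 0.16, edgeR adjusted p = 0.00491) and by 1.41 in stromal cells (SE 0.17, adjusted p = 0.00190). The non-canonical ligand *Dlk1* fell by 0.91 in stromal cells (SE 0.17, adjusted p = 0.0138), where it was highest in TM11 at 6.03, 8.07 and 1.80.

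*Nrarp*, a target of Notch that limits its activity and was highest in cluster 21 (3.64, 4.43 and 2.75), fell by 0.80 in endothelial cells (SE 0.18, edgeR adjusted p = 0.00191) and by 2.41 in stromal cells (SE 0.47, adjusted p = 0.0168), in the latter from 56 and 57 UMIs to 8. This is the opposite direction to *Hes1* in the same stromal sums. *Ncstn*, a subunit of the cleaving γ-secretase, rose by 0.67 in stromal cells (SE 0.18, adjusted p = 0.0485) and by 1.02 in the epithelium (SE 0.20, adjusted p = 0.0277), and *Itch*, a ubiquitin ligase of Notch, rose by 0.54 (SE 0.13, adjusted p = 0.0408) and 0.84 (SE 0.19, adjusted p = 0.0416). *Rbpj* rose by 0.74 in the epithelium (SE 0.16, adjusted p = 0.0401). Of the remaining calls, *Furin*, which processes the receptors, rose by 0.56 in endothelium (adjusted p = 0.0210), *Dtx3* rose by 0.50 in mural cells (adjusted p = 0.0409), and *Poglut1*, which glycosylates the receptors, fell by 0.92 in stroma (adjusted p = 0.0274). In endothelial cells *Dtx2* had 19, 51 and 6 UMIs and *Dtx1* had 1, 1 and 19 UMIs, and both are among the endothelial calls counted above. With so few control UMIs, *Dtx1* passed the filter on low counts only through the *Angpt1*ΔNC library, where it was high. Its call therefore depends on that value. The *Dtx1* level, as the mean over endothelial cells, was 0.0228, 0.00225 and 0.0452, near the floor.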

How the data were processed

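UMI counts of 3 droplet libraries were taken as deposited by the authors, who made them with Cell Ranger (version 2.1.1 in the submitters' processing notes, 3.0.2 in the matrix headers) against mm10, and then kept cells by genes, UMIs and mitochondrial share and removed doublets with scDblFinder. Cluster labels are those the authors deposited for the kept cells (Seurat 3.1.3). Counts are raw, whole numbers per gene and cell, with no normalization. The authors' integrated expression values were not used.

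The members and gene lists were chosen with earlier results of these data known. Members were matched by symbol, and gene positions come from GENCODE M21 (GRCm38), which held 30934 of 31053 identifiers. Levels are means over kept cells of UMIs per 10,000. Shares of cells have exact (Clopper-Pearson) 95% intervals, a share of 0 is given with the limit that 3 cells set, and shares were also computed with each cell thinned to 2000 UMIs. For the genotype comparison UMIs were summed per class and library and tested with edgeR 4.0.16 in R 4.3.3 (filterByExpr, TMM factors and the quasi-likelihood test), with Benjamini-Hochberg adjustment over all genes tested and a threshold of 0.05. The classes were Schlemm's canal, lymphatic endothelium and EC2 to EC4 (endothelial), clusters 19 to 21 (mural), TM1 to TM11 (stromal) and clusters 4 and 5 (surface epithelium). The standard errors (SE) of edgeR values were derived, as the size of the log2 fold change divided by the square root of the quasi-likelihood F statistic. Class sums held between 1674775 and 22854928 UMIs, so a gene with few UMIs in the smaller sums has a wide error. On simulated counts with known changes of 2 on the log2 scale, in either direction, edgeR found 81.2% (mural, 11422 genes) to 91.4% (stromal, 13748 genes) of them. Every gene in this simulation had the same dispersion, so it does not describe smaller changes or genes of other spread. Of the genes called there, 1.84% (endothelial), 1.23% (mural), 5.24% (stromal) and 8.21% (surface epithelium) had not been changed, above the 5% aimed for in the last 2.

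Alternatives were DESeq2 1.42.0, no TMM factors, every gene kept whatever its counts, the same number of cells drawn from each label, male-typed cells (a Y-linked UMI and no *Xist*), EC2 to EC4 alone, cluster 20 alone and leaving out each control, and, added after seeing the data, TM6 to TM9 alone and endothelium without the lymphatic label. All 10 members are named in every class. Of the 43 other pathway genes, those past the adjusted p in the main fit are named, and none was checked under the alternatives. Python 3.11.15, numpy 2.4.6, pandas 2.3.3, scipy 1.17.1 and matplotlib 3.10.9 were used.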

Additional observations from a re-analysis of the deposited data

Results flagged for a closer look

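A total of 7 differences between classes passed the test of the difference itself (edgeR, 1 model over the 12 class sums, against stromal cells). Over all genes 3.63% of such differences passed for endothelial cells, 4.15% for mural cells and 4.63% for the surface epithelium. On the log2 scale, the effect of *Angpt1*ΔNC on *Notch1* was 0.80 higher in endothelial cells and 0.96 higher in the surface epithelium. With equal numbers of cells of each label these were 0.45 (edgeR adjusted p = 0.205) and 0.54 (adjusted p = 0.115), neither past the threshold. The effect on *Hey1* was 1.80 higher in endothelial cells, of which the lymphatic label gave 39 of 96 *Angpt1*ΔNC UMIs, and 1.30 higher with equal numbers of cells (edgeR adjusted p = 0.0486). In mural cells the effect was 1.29 higher for *Jag1*, 1.97 higher for *Notch3* and 1.43 higher for *Heyl*, and with equal numbers of cells of each label these were 0.23, 0.63 and 0.56, none past the threshold. The effect on *Notch3* was 1.02 higher in the surface epithelium. It was 0.97 higher with equal numbers of cells (edgeR adjusted p = 0.0264) and 0.97 higher without TMM factors (adjusted p = 0.0511), which did not pass.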

How the results depend on the processing

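Calls over all genes depended on the setting. With DESeq2, 257 genes were called in endothelial cells in place of 1250, 564 in mural cells in place of 1898, 636 in stromal cells in place of 1251 and 431 in the epithelium in place of 706. With equal numbers of cells of each label there were 689 in endothelial and 945 in mural cells, and 118 differences from stromal cells were called for mural cells in place of 573 and 387 for the epithelium in place of 639. Cluster 20 alone gave 698. No filter on low counts gave 2441 in stromal cells and 1814 in the epithelium, and 903 (in place of 501), 1043 and 1200 differences for endothelial cells, mural cells and the epithelium. In the epithelium no TMM factors gave 341 and male-typed cells 465.

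Of the 10 calls among members, the fall of *Notch3* and the rise of *Hes1* in stromal cells passed in all alternatives with a test. Over all 10, 41 of 62 alternative values stayed past the threshold in the same direction, 20 lost it, and 1 turned, *Jag1* in mural cells with equal numbers of cells (-0.0014). Among the values not called, signs turned for *Jag1* in endothelial cells (0.38 with equal numbers of cells, 0.0096 in EC2 to EC4 alone), *Notch4* in endothelial cells (-0.074 without TMM factors, -0.029 with equal numbers of cells, -0.16 in male-typed cells, -0.012 in EC2 to EC4 alone), *Notch3* in mural cells (-0.30 with equal numbers of cells, -0.44 in cluster 20 alone), *Heyl* in TM6 to TM9 alone (0.20), *Notch3* in the epithelium (0.047 with equal numbers of cells) and, without control replicate 2, *Notch1* in mural cells (0.022) and *Notch2* in the epithelium (0.0051). The cause was not tested. Besides those named in the class paragraphs, further values not called in the main fit passed the threshold under an alternative. *Hey1* in mural cells did so without TMM factors (-0.90) and without the filter on low counts (-0.76). Without that filter, *Notch2* (-0.61), *Hey1* (-0.58) and *Jag1* (-0.53) in stromal cells and *Notch1* in the epithelium (0.64) also did. Leaving out either control turned no called value, and in each case 9 of the 10 genes kept the label with the highest level, the exception being *Notch1* (EC4) without control replicate 1 and *Notch2* (cluster 23) without control replicate 2. No paired analysis was possible because the groups share fewer than 2 replicate numbers. Depth limits *Notch2* in endothelium, *Notch4* and *Jag2*, which rest on few UMIs.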
